A study of Mus musculus with 2 samples.

Results

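The Mir17-92 cluster is a run of 6 microRNA (miRNA) hairpins, Mir17, Mir18, Mir19a, Mir20a, Mir19b-1 and Mir92-1, that lie in 1 primary transcript on chromosome 14 of the mouse. These 6 of the 2202 miRNA genes listed in the deposited counts were chosen by name, after the gene identifiers had been matched to GENCODE M21. The rule used no measured value, but earlier results of these data were known when the choice was made. The libraries were made from total RNA of whole hearts of 2 male B6CASTF1/J mice, the first-generation cross of C57BL/6J with the wild-derived CAST strain, at an age of 25 days, and RNA shorter than 30 nucleotides was selected. The sample descriptions attach months to the number 25, whereas the age and source labels give days, and days were used here. Both libraries belong to 1 group, with 1 library per animal. The labels name no genetic change or agent, and no contrast, so the only comparison possible was between the libraries, called replicates 1 and 2 after the labels. The animals are numbered separately but carry 1 donor identifier, so the spread between them may in part be technical.

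The hairpins of the cluster are cut from the primary transcript by Drosha, and Dicer then releases the mature miRNAs of about the length of a single small-RNA read. A mature miRNA finds its target messenger RNAs mainly through its seed, bases 2 to 8 counted from the 5′ end. The transcript is known as a target of MYC and E2F factors, its miRNAs are known to promote proliferation and to repress Bcl2l11 and cell-cycle inhibitors, and in the heart it has been linked to cardiomyocyte proliferation in embryonic and newborn life. A pair of paralogous clusters arose from the same ancestor: Mir106b, Mir93 and Mir25 in an intron of Mcm7 on chromosome 5, and Mir106a, Mir18b, Mir20b, Mir19b-2, Mir92-2 and Mir363 on chromosome X.

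The mature sequences that define the 6 genes are shown first because their seeds set the families used below, and because 2 of them have identical copies elsewhere in the genome. They are the RefSeq sequences (GRCm38.p6) of the arm commonly taken as the functional one, 5′ to 3′, with the seed in capitals.
Mir17, miR-17-5p: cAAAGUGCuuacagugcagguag
Mir20a, miR-20a-5p: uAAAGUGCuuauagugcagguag
Mir18, miR-18a-5p: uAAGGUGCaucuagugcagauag
Mir19a, miR-19a-3p: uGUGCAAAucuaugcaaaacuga
Mir19b-1, miR-19b-3p: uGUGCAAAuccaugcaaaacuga
Mir92-1, miR-92a-3p: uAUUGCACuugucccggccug
The 6 genes hold 4 seeds. Mir17 and Mir20a share AAAGUGC, Mir19a and Mir19b-1 share GUGCAAA, Mir18 has AAGGUGC and Mir92-1 has AUUGCAC. Counted from 1 at the 5′ end, miR-17-5p differs from miR-20a-5p at C1U and C12U, and miR-19a-3p differs from miR-19b-3p only at U11C. The deposited counts are per hairpin gene, so the 5′ and 3′ arms were not separated in any value below.

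In mm10 all 6 hairpins lie on the plus strand within exon 2 of Mir17hg, a long non-coding host gene with 2 annotated exons (chromosome 14, 115042879 to 115046727). They span 836 bases in the order Mir17 (115043671 to 115043754), Mir18 (115043851 to 115043946), Mir19a (115044000 to 115044081), Mir20a (115044157 to 115044263), Mir19b-1 (115044305 to 115044391) and Mir92-1 (115044427 to 115044506). The gaps between neighbouring hairpins are 35 to 96 bases. No member had a count on the opposite strand, and unstranded and stranded counts were equal for each member.

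Reads assigned to single miRNA genes, in the sense direction, numbered 4930853 in replicate 1 and 5229819 in replicate 2. Levels are these counts scaled to 1000000 assigned counts (CPM), and 1 count equals 0.203 CPM and 0.191 CPM in the respective libraries. A read spans a whole mature miRNA, so counts were not divided by gene length. Reads placed at several loci, 5497619 in replicate 1 and 5375745 in replicate 2, belong to no gene's count, and they outnumber the reads of the cluster 176 and 231 times. Markers of heart muscle were present, with the myosin-gene miRNAs Mir499 at 2933 and 2758 CPM, Mir208a at 1361 and 3562 CPM and Mir208b at 191 and 192 CPM in replicates 1 and 2. The 5 other heart muscle markers, all Mir1a or Mir133 genes, had only 3 to 203 assigned counts per library. Copies of their mature sequences were not looked for, and any of their reads placed at several loci are not in these counts. Their low counts therefore do not give the level of miR-1 or miR-133 in the heart. Detection was set at a minimum of 10 counts per library in both, which 356 genes reached. With 2 libraries of 1 group an exact permutation test cannot reach 0.05, so levels are given per library and as mean ± SD.

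Assigned counts of the members of the cluster in the heart were very unequal. For Mir19b-1 and Mir92-1, whose mature sequences have identical copies elsewhere, reads placed at several loci are not in these counts. Mir92-1 and Mir17 led at about equal level, Mir20a followed, Mir18 was lower by an order of magnitude, and Mir19a and Mir19b-1 were close to absent from the assigned reads. The cluster held 31164 counts, 0.632% of assigned counts, in replicate 1 (exact Clopper-Pearson 95% interval 0.625 to 0.639%) and 23266 counts, 0.445%, in replicate 2 (0.439 to 0.451%), a mean of 0.538 ± 0.132% (SD, n = 2). All intervals cover counting error only, since reads without molecular identifiers are not independent molecules.

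Mir92-1, the last hairpin, whose miR-92a is known for restraining blood vessel growth, had 12139 counts (2462 CPM) in replicate 1 and 9204 counts (1760 CPM) in replicate 2, a mean of 2111 ± 496 CPM (SD, n = 2). Mir17, the first hairpin, which gives its name to the miR-17 family, had 10645 counts (2159 CPM) and 9970 counts (1906 CPM), a mean of 2033 ± 179 CPM. Among all listed genes they ranked 44 and 46 by mean level, against a median of 60.3 CPM for detected genes. Ranks here and below are by assigned counts, without reads placed at several loci. Their order was not fixed: Mir92-1 exceeded Mir17 1.14-fold in replicate 1 (exact 95% interval 1.11 to 1.17), and in replicate 2 the ratio of Mir92-1 to Mir17 was 0.923 (0.897 to 0.9498). The means therefore do not separate the pair beyond the spread between libraries.

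Mir20a, which shares the miR-17 seed, had 7743 counts (1570 CPM) in replicate 1 and 3643 counts (697 CPM) in replicate 2, a mean of 1133 ± 618 CPM (SD, n = 2) and rank 71. It was below Mir17 and Mir92-1 in both libraries, without overlap. Its distance to Mir17 changed from 1.37-fold in replicate 1 (1.34 to 1.42) to 2.74-fold in replicate 2 (2.63 to 2.84), intervals that do not overlap. Mir18, whose hairpin is known to need the RNA-binding protein hnRNP A1 for its processing, had 631 counts (128 CPM) and 445 counts (85.1 CPM), a mean of 107 ± 30.3 CPM and rank 150. Mir17 exceeded its neighbour Mir18 16.9-fold in replicate 1 (15.6 to 18.3) and 22.4-fold in replicate 2 (20.4 to 24.7).

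Mir19a, whose miR-19 is known as the main oncogenic part of the cluster in lymphoma models, had 5 counts in replicate 1 (1.01 CPM, exact 95% interval 0.329 to 2.37) and 1 count in replicate 2 (0.191 CPM, 0.00484 to 1.07). Mir19b-1 had 1 count (0.203 CPM, 0.00513 to 1.13) and 3 counts (0.574 CPM, 0.118 to 1.68). Neither reached 10 counts, and their order was reversed between the libraries within counting error. Mir18, at its low level, still exceeded Mir19a 126-fold in replicate 1 (53.8 to 390) and 445-fold in replicate 2 (79.5 to 17616), the second resting on 1 count of Mir19a. Both miR-19 hairpins thus had almost no assigned reads although Mir18, Mir20a and Mir92-1 on either side of them in the same exon had 445 to 12139 counts per library.

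**Figure D1:**
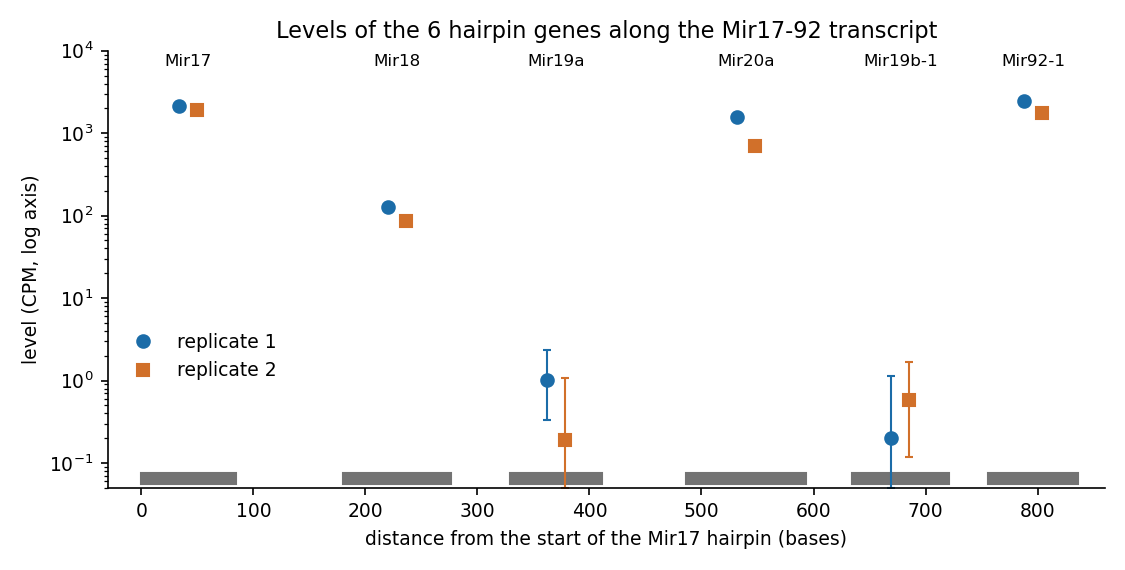
Level of each hairpin gene (CPM, log axis) against its distance from the start of the Mir17 hairpin in bases, with replicate 1 as circles, replicate 2 as squares, exact 95% intervals as bars (cut off at the bottom of the axis where they reach lower) and the hairpins as grey boxes. Mir17, Mir20a and Mir92-1 lie between 697 and 2462 CPM, Mir18 at 85.1 and 128 CPM, and Mir19a and Mir19b-1 between 0.191 and 1.01 CPM.

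The deposited files tally reads at several loci in a row of their own, so copies of the members were looked for. The mature sequences of Mir17, Mir18, Mir19a and Mir20a are contained in no other hairpin of the RefSeq table, whereas miR-19b-3p is also made by Mir19b-2 and miR-92a-3p by Mir92-2, both in the chromosome X cluster. The paired hairpins follow, 5′ to 3′ (GRCm38.p6, each on its own strand), with the longest run that both members of a pair share in capitals.
Mir19b-1: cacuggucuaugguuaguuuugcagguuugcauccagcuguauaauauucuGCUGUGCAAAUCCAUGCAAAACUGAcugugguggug
Mir19b-2: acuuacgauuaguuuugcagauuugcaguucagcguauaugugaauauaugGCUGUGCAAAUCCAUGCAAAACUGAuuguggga
Mir92-1: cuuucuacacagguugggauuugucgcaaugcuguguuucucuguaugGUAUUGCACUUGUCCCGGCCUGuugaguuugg
Mir92-2: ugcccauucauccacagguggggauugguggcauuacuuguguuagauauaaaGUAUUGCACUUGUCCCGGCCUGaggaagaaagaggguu
The Mir19b pair shares 25 bases, which hold the 23 bases of miR-19b-3p with 2 bases before and 0 after them. The Mir92 pair shares 22 bases, which hold the 21 bases of miR-92a-3p with 1 base before and 0 after them. In both pairs the hairpins differ at the base that directly follows the mature sequence.

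The 2 members with a shared mature sequence lay at opposite ends of the cluster's range. Mir92-1 was the most abundant member by mean, and its copy Mir92-2 (chromosome X, 52741838 to 52741928) had 816 and 521 counts, 14.9-fold (13.9 to 16.0) and 17.7-fold (16.2 to 19.3) fewer in replicates 1 and 2. Mir19b-1 had 1 and 3 counts and Mir19b-2 (chromosome X, 52741983 to 52742066) had 0 in both, which allows up to 0.608 and 0.574 CPM if a 0 is taken to allow 3 counts per library. Mir19a had 5 and 1 counts although miR-19a-3p is in no other hairpin of the table. The 3p mature sequences of Mir19a and Mir19b-1 had GC contents of 34.8% and 39.1%, against 39.1% for miR-20a-5p, 43.5% for miR-18a-5p, 47.8% for miR-17-5p and 57.1% for miR-92a-3p. The part of read placement, base composition or adapter ligation in the low miR-19 counts was not tested, and reads of Mir19b-1 and Mir92-1 that fell in the several-loci row are missing from their counts.

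Grouped by seed, the cluster supplied very different parts of the assigned counts of each family. In the miR-17 family (seed AAAGUGC, 7 listed genes) Mir17 and Mir20a together gave 25.1% of the counts in replicate 1 and 26.0% in replicate 2. Mir93 of the chromosome 5 cluster was the largest member, at 9409 and 6141 CPM, 4.36-fold (4.27 to 4.45) and 3.22-fold (3.15 to 3.29) above Mir17. Mir106b of the same cluster, at 1667 and 1236 CPM, was below Mir17 and above Mir20a in both libraries. Mir106a and Mir20b of chromosome X, whose mature sequences differ from miR-17-5p at U10A and at U10C and C12U, had 116 and 84 counts and 66 and 50 counts. Mir17 exceeded Mir106a 91.8-fold (76.4 to 111) and 119-fold (95.8 to 149). Their mature sequences differ at a single base, and how reads of such near-identical miRNAs were assigned could not be checked.

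In the miR-92 family (seed AUUGCAC, 7 listed genes) Mir92-1 alone gave 68.9% and 71.9% of the assigned counts. Reads of miR-92a-3p placed at several loci are missing from the counts of Mir92-1 and Mir92-2, so the full shares are not known. Mir25 followed at 822 and 507 CPM, 2.99-fold (2.89 to 3.10) and 3.47-fold (3.32 to 3.62) below Mir92-1. Mir92b had 409 and 209 counts, Mir32 had 160 and 187, and Mir363 had 48 and 27. The Mir18 seed is shared only with Mir18b among listed genes, which had 10 counts in replicate 1 and 0 in replicate 2, so that Mir18 gave 98.4% and 100% of that family. All 3 genes with the miR-19 seed summed to 1.22 and 0.765 CPM. Mir6383 and Mir367, which share the miR-17 and miR-92 seeds, had 0 counts in both libraries.

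**Figure D2:**
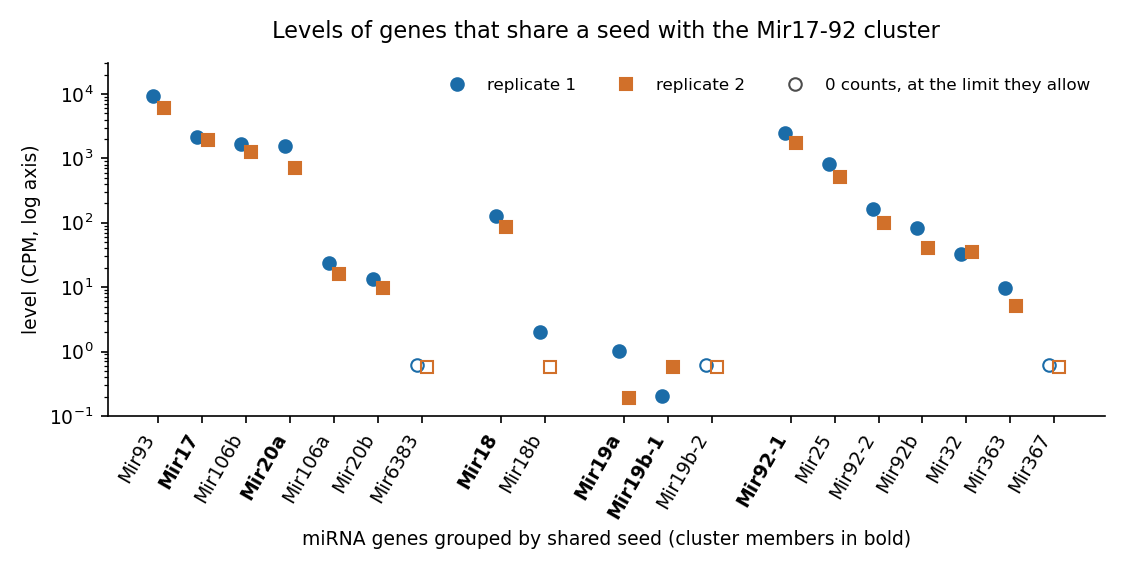
Level (CPM, log axis) of each listed gene that shares a seed with a cluster member, grouped by the seeds of miR-17, miR-18a, miR-19 and miR-92a from left to right, with replicate 1 as circles, replicate 2 as squares and open symbols for 0 counts, drawn at the level of 3 counts. Mir93 at 9409 and 6141 CPM leads the miR-17 family and Mir92-1 at 2462 and 1760 CPM the miR-92 family, while the miR-19 group stays near 1 CPM or below.

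As sums of assigned counts, the cluster was lower than the chromosome 5 cluster and far higher than the chromosome X cluster. Mir106b, Mir93 and Mir25 held 58668 and 41236 counts, 1.88 times (1.86 to 1.91) and 1.77 times (1.74 to 1.80) those of the Mir17-92 genes. The 6 genes of the chromosome X cluster held 1056 and 682 counts, and the Mir17-92 sum exceeded theirs 29.5-fold (27.8 to 31.4) and 34.1-fold (31.6 to 36.9). Without Mir19b-1, Mir92-1, Mir19b-2 and Mir92-2, whose mature sequences are shared, the mean ratio over the libraries to the chromosome 5 cluster changed from 0.548 to 0.333, and that to the chromosome X cluster from 31.8 to 83.3. Leaving out these genes does not restore their reads at several loci, which are missing from the Mir17-92 and chromosome X sums. The mature sequences of Mir106b, Mir93 and Mir25 are in no other hairpin of the RefSeq table. The part of the missing reads in the order of the sums was not tested.

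All 4 detected members were lower in replicate 2 than in replicate 1. For each gene a two-sided exact binomial test set its 2 counts against the sizes of the libraries, with Benjamini-Hochberg adjustment over the 356 detected genes. The test compares 2 libraries and not conditions, and covers counting error alone. By it 4 of 4 tested members were called lower, against 30.6% of all detected genes called lower and 63.5% called in either direction. Calls by this test depend on depth. Among the 222 genes with at least 100 counts in both libraries, which include these 4, 180 were called, 79 of them lower. Their median log2 ratio was -0.54, against 0.02 over all detected genes. Mir19a and Mir19b-1 were too low to be tested. The animals' hearts, their cell content and the library preparations cannot be told apart in this comparison, and in whole tissue fewer cells of a type and less RNA per cell cannot be told apart either.

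The members differed in size of the ratio. Mir20a differed most, 2.25-fold lower in replicate 2 (exact 95% interval 2.17 to 2.35), a log2 ratio of -1.17 with an adjusted p too small for double precision. Only 16 of the 356 detected genes had a lower log2 ratio. Mir18 was 1.504-fold lower (1.33 to 1.70; log2 ratio -0.59, adjusted p = 8.94e-11, exact binomial test) and Mir92-1 1.40-fold lower (1.36 to 1.44; log2 ratio -0.48, adjusted p = 9.25e-131, exact binomial test). Mir17 differed least, 1.13-fold lower (1.10 to 1.16; log2 ratio -0.18, adjusted p = 1.62e-18, exact binomial test).

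The 4 ratios spanned 0.99 on the log2 scale although the hairpins lie in 1 transcript, and the intervals of Mir17, Mir92-1 and Mir20a do not overlap one another. Over all detected genes the SD of the log2 ratio was 0.86, so Mir17, Mir18 and Mir92-1 lay inside 1 SD of 0 and Mir20a outside it. When the spread between the libraries was taken as replicate error, by edgeR's exact test with the common biological coefficient of variation of 0.386, 0 of the 4 members were called and 0 had an unadjusted p under 0.05. By that test 4 of the 356 genes were called and 19 had an unadjusted p under 0.05. The 4 differences were thus larger than counting error and did not pass a test that takes the spread between the libraries as error.

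Within the cluster the make-up of the assigned counts shifted with these ratios. Reads of Mir19b-1 and Mir92-1 placed at several loci are missing from all shares that follow. Mir17 made up 34.2% of the cluster's counts in replicate 1 (exact 95% interval 33.6 to 34.7%) and 42.9% in replicate 2 (42.2 to 43.5%). Mir20a made up 24.8% (24.4 to 25.3%) and 15.7% (15.2 to 16.1%). Mir92-1 stayed at 39.0% (38.4 to 39.5%) and 39.6% (38.9 to 40.2%), and Mir18 at 2.02% and 1.91%, with overlapping intervals for both.

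The paralogous clusters had ratios in the same direction. In the Mir106b-25 cluster all 3 genes were called lower in replicate 2, with log2 ratios of -0.43 for Mir106b, -0.62 for Mir93 and -0.70 for Mir25, a span of 0.27. In the Mir106a-363 cluster 4 of 6 genes were tested. Of these, Mir106a (-0.55, adjusted p = 0.0150, exact binomial test), Mir92-2 (-0.73) and Mir363 (-0.90, adjusted p = 0.0135, exact binomial test) were called lower, and Mir20b, at -0.48, was not called (adjusted p = 0.114, exact binomial test). Outside the clusters, Mir92b with the miR-92 seed was called lower at -1.05, and Mir32, at 0.14, was not called (adjusted p = 0.487, exact binomial test). Whether the Mir17-92 ratios differ from those of its paralogs as a group was not tested.

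**Figure D3:**
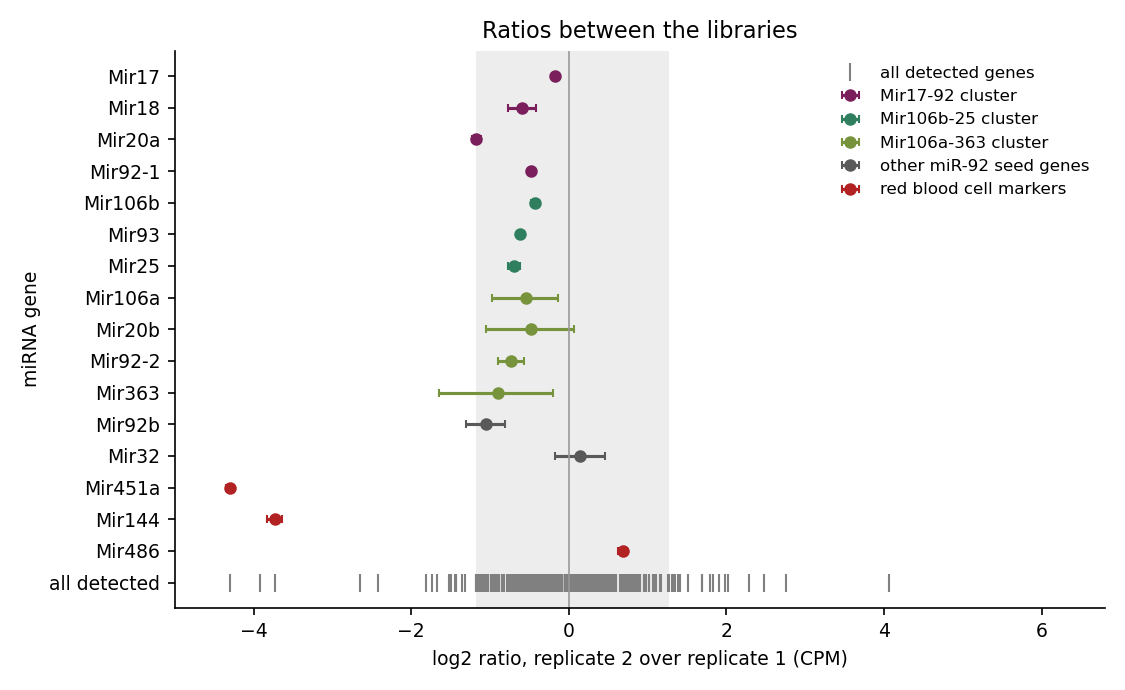
Log2 ratio of replicate 2 over replicate 1 with exact 95% intervals for the tested genes of the Mir17-92 cluster, its paralogous clusters, the other miR-92 seed genes and the red blood cell markers, with all 356 detected genes as ticks and the range from their 5th to 95th percentile (-1.17 to 1.26) shaded. The 4 Mir17-92 genes lie between -1.17 and -0.18.

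Cell type markers also differed between the libraries. Among all 356 detected genes 117 were called higher in replicate 2 and 109 lower. Of 3 red blood cell markers 2 were called lower in replicate 2, Mir451a at 19491 and 986 CPM and Mir144 at 2321 and 175 CPM, and Mir486, also abundant in muscle, was higher at 731 and 1173 CPM. Their sum was 22542 CPM in replicate 1 and 2335 CPM in replicate 2, lower in the library where the cluster was lower. The other marker sums were higher there, though not all of their genes. The 8 heart muscle genes summed to 4533 and 6558 CPM, most of it from Mir499 and Mir208a, without reads placed at several loci. But of 5 tested only Mir208a was called higher, Mir499 was called lower (log2 ratio -0.09) and 3 were not called. The 6 leukocyte genes, led by Mir155, Mir150 and Mir342, summed to 6415 and 8108 CPM, with 4 called higher, Mir155 not called and Mir142 called lower at 503 and 271 CPM (log2 ratio -0.89), the direction of the cluster. The 4 endothelial genes, led by Mir126a, Mir221 and Mir222, summed to 57798 and 72018 CPM, with all 3 tested genes called higher. The 6 smooth muscle and fibroblast genes, led by Mir143, Mir21a and Mir214, summed to 33441 and 45971 CPM, with 4 of 5 tested called higher and 1 not called. Of the markers only Mir199a-1 was at 0 counts in both libraries. The part of cell content in the ratios of the cluster was not tested.

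The genes nearest to Mir92-1 in level were Mir195a, Mir423, Mir28a, Mir127 and Mir106b, ranked by the largest difference of log2 CPM over the 2 libraries, from 0.31 to 0.56. Of these, Mir195a, known for blocking the cell cycle in the newborn heart, was at 2208 and 1422 CPM, and its log2 ratio between the libraries was -0.63. Mir423 and Mir28a, at 0.13 and 0.03, had ratios of the other sign, and Mir127 was at -0.11. With 2 libraries this likeness describes the level and nothing more.

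**Figure D4:**
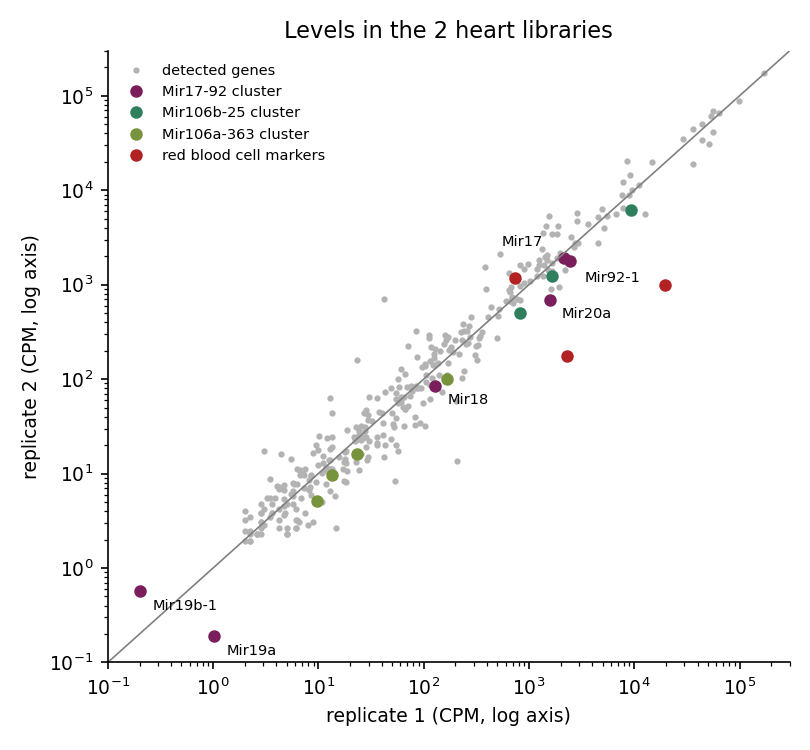
Level of each gene in replicate 2 against replicate 1 (CPM, log axes), with detected genes in grey, genes of the 3 clusters and the red blood cell markers in colour, and the line of equal levels. Mir17 and Mir92-1 lie just under the line at 1760 to 2462 CPM, Mir20a further below it at 1570 and 697 CPM, and Mir19a and Mir19b-1 at the lower left with 1 to 5 counts.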

How the data were processed

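The authors deposited 1 file per library, with raw read counts for each miRNA gene. Per the text accompanying the deposited files, the build is mm10 and the annotation GENCODE M21. Neither aligner nor counter is named there (not given in the sources used here). Of 3 columns (unstranded, sense and antisense) the sense counts were used. The 4 rows that name no gene (reads unmapped, at several loci, outside genes or ambiguous), 62.7% and 63.6% of reads in replicates 1 and 2, were left out of totals and tests.

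All 2202 identifiers matched GENCODE M21, which gave symbols and coordinates. Sequences came from RefSeq (GRCm38.p6), where 17 of 17 genes of the cluster, its paralogs and the miR-92 seed matched with the same hairpin coordinates. Shared runs were searched between RefSeq hairpins on the sense strand, and copies outside that table were not looked for.

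Log2 ratios use a pseudocount of 0.5 counts. The 95% intervals are exact (Clopper-Pearson). The quasi-likelihood test of edgeR was not used because a contrast between 2 single libraries leaves no residual degrees of freedom. The exact binomial test (scipy 1.17.1) was tested on simulated counts that held counting error only. That simulation does not cover the further spread between real libraries. edgeR 4.0.16 and DESeq2 1.42.0 gave alternative scalings, and edgeR a common dispersion from an intercept-only fit. Named genes are the members, their paralogs, Mir92b, Mir32, up to 3 leading genes of each marker list and the 5 genes nearest in level to the most abundant member. Mir6383, Mir367, Mir142 and Mir199a-1 were named after their values were seen. The members and lists were chosen with earlier results of these data known.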

Additional observations from a re-analysis of the deposited data

How the results depend on the processing

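The call of 4 members as lower in replicate 2 held under unstranded counts, TMM scaling, DESeq2 size factors, all reads as the denominator, count minimums of 1 and 100, a pseudocount of 1, and, chosen after seeing the data, a total without the red blood cell markers. Over these 8 alternatives the log2 ratio ranged from -0.22 to -0.17 for Mir17, from -0.63 to -0.58 for Mir18, from -1.22 to -1.17 for Mir20a and from -0.53 to -0.48 for Mir92-1. TMM scaling shifted all log2 ratios by -0.04. In the exact binomial test the pseudocount plays no part, and the count minimums change only the set of genes tested and adjusted over. Unstranded and sense counts are equal for each member, so there only the totals and that set change. These settings could therefore hardly alter the call of the 4 members. At a minimum of 1 count 6 members were tested, and Mir19a and Mir19b-1 were not called. With edgeR's exact test and a common dispersion, also chosen after seeing the data, 0 members were called, since that test adds the spread between libraries. The mean share of the cluster was 0.741% of unstranded counts, 0.199% of all reads, and 0.327% without Mir19b-1 and Mir92-1, all set by the changed denominator or gene set, and 0.445 to 0.632% in single libraries. Without genes with shared mature sequences the ratio to the Mir106b-25 sum was 0.333 and that to the Mir106a-363 sum 83.3, and in single libraries these ratios were 0.531 to 0.564 and 29.5 to 34.1. Of the 5 steps in the order of members by mean level, 3 held in replicate 2 alone and 5 in replicate 1 alone. No paired analysis was possible because there is 1 group. The 1 to 5 counts of Mir19a and Mir19b-1 leave their order and ratio open to counting error.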
